A study of Homo sapiens with 4 samples.

Results

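The genes described are interstitial collagenase MMP1, the related matrix metalloproteinases MMP13, MMP14 and MMP2, the tissue inhibitors TIMP1, TIMP2, TIMP3 and TIMP4, and the membrane proteins RECK and BSG. They were taken by name, as every probe other than controls whose accession RefSeq assigns to these 10 genes, which gave 11 of the 34127 probes of the array. Of these, 10 probes, 1 for each gene, passed the filter on signal over background, beside 23484 genes tested in all. The accessions of 9301 of the 34127 probes had no match in RefSeq. Such an accession was counted as a gene of its own, so 1 gene may be counted more than once among all genes.

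SAS is a human cell line from a squamous carcinoma of the tongue. SB cells were SAS cells made stable with a lentiviral pLKO.1-LYRIC shRNA-B vector against AEG-1 (listed as MTDH), and SCt cells were control SAS cells, which the labels describe as carrying the pLKO.1 vector and the study's methods as carrying a scrambled shRNA. Puromycin at 2 μg/ml selected both lines over 14 days, and each of 4 arrays received RNA of SB cells in a red dye together with RNA of SCt cells in a green dye. The labels call the arrays biological replicates, but give no culture or extract for them, so the p-values measure the spread between these arrays, which may be technical. The 4 arrays shared 1 slide and 1 scan, and on 0 of them were the dyes exchanged, so a preference of a probe for a dye cannot be told apart from a difference between the lines.

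Collagenases cut the triple helix of interstitial collagens, a step that most other proteases cannot make. MMP1 and MMP13 are secreted collagenases, MMP14 is a collagenase anchored in the cell membrane, and MMP2 is a gelatinase that degrades collagen once it is unwound and that MMP14 activates together with TIMP2. TIMPs block MMPs by binding to the active site, RECK is a membrane-anchored protein that restrains several MMPs, and BSG (basigin, EMMPRIN) is a surface glycoprotein named for its induction of MMPs in neighbouring cells. MMP1 is known as a protease made by invading squamous carcinoma cells and by the stroma around them.

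The depth of an array is given here by its signal over background. Of the 43118 spots on an array, SB cells gave a signal well above background at 85.4% to 90.3%, depending on the array, and SCt cells at 84.7% to 90.0%. Precision is limited by having 4 arrays. The arrays were not equally alike: across the probes tested, which are not independent replicates, the ratios of arrays 1 and 4 had a correlation of 0.0459, while the other pairs lay between 0.322 and 0.461. MMP1 was called by limma with any 1 array left out, and TIMP2 and TIMP3 without array 1, 2 or 4 but not without array 3. Values are log2 ratios of SB over SCt cells after background correction and loess normalization within each array, so that −1 is a halving in SB cells. A gene is called where limma gives a p under 0.05 after Benjamini-Hochberg adjustment over all 28505 probes tested. The knockdown was read first: AEG-1 had log2 ratios of −3.18, −3.01, −3.12 and −3.41 on arrays 1 to 4, a mean of −3.18 ± 0.17 (SD, n = 4 arrays; limma, adjusted p = 5.19e-10), in the direction of the labels. Under the methods' t-test, 0 of the 28505 probes passed after adjustment, AEG-1 (adjusted p = 0.143) and the 10 genes included, against 3936 at an unadjusted p under 0.05 and 5333 by limma. RNA was taken from whole cultures, so fewer cells with a transcript and less transcript per cell cannot be told apart.

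The squamous identity of the cells was checked with keratins and junction genes. All 10 squamous epithelial markers on the list were well above background in both lines on all 4 arrays, KRT14 the brightest of them. By limma 0 of these 10 were called, with 5 at an unadjusted p under 0.05 and 4 by the methods' t-test; 4 were called as higher under median centring, and 1 as lower without array 4. Markers of cells that a pure line should lack were above background too, 5 of 8 for fibroblasts, 3 of 4 for endothelium and 5 of 5 for leukocytes. Some were bright, PTPRC with intensities from 16382 to 22990 at its brightest probe and COL1A1 from 4428 to 8591 over both lines, and the source of these signals was not tested. By limma 0 of these 13 were called, and 0 were under an unadjusted p of 0.05 by either test, although median centring called 2, 1 and 1 of them. COL3A1, LUM and PDGFRB among the fibroblast markers and TEK among the endothelial markers were too dim to test, COL3A1 and LUM on all arrays.

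Of the 10 genes, 3 were called, all lower in SB cells: MMP1, TIMP2 and TIMP3. Without array 3 the count was 1, MMP1. Across all genes, 3.51% were called, 2.26% as lower and 1.26% as higher in SB cells. By probe, 679 were lower and 376 higher, a balance that turned under median centring, with 3338 lower and 5599 higher. With all 4 arrays, a collagenase and 2 of the 4 inhibitors were thus called lower, while MMP13, MMP14, MMP2, TIMP1, TIMP4, RECK and BSG did not pass the test. The median log2 ratio of the 10 genes was −0.07, with 8 below and 2 above 0 (TIMP1 and BSG lay above 0 and RECK below it under median centring, and MMP2 above 0 and RECK below it with the scanner software's ratios), and that of all 23484 genes was 0.01, with 44.6% below 0.

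**Figure D1:**
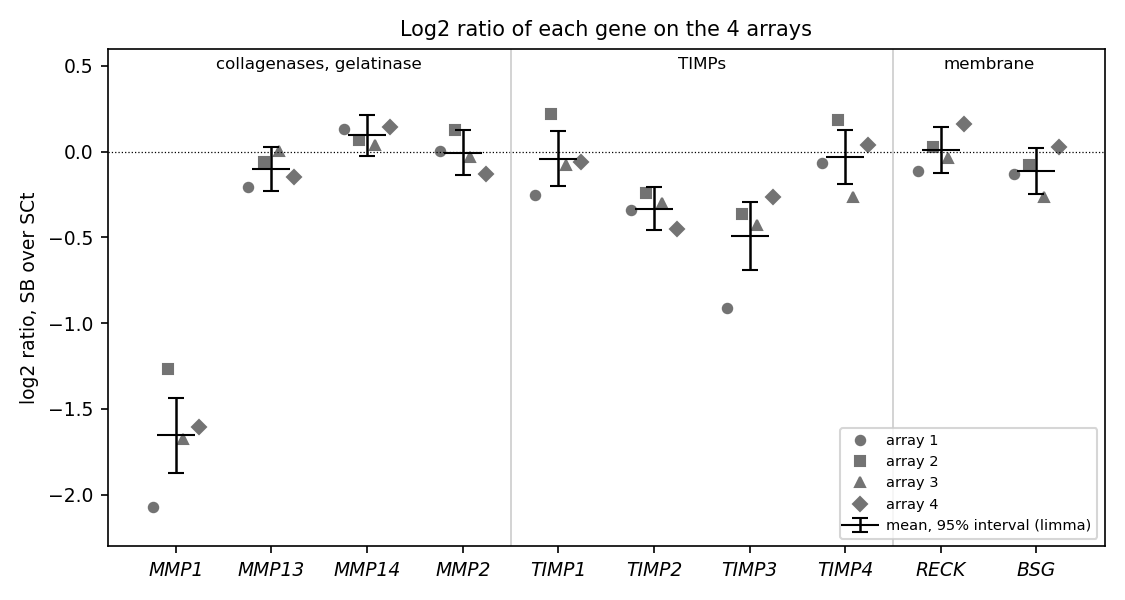
Log2 ratio of SB over SCt cells (vertical axis) for each of the 10 genes at its tested probe, with a symbol for each of the 4 arrays and the mean with its 95% interval from limma. MMP1 lies below −1 on every array, TIMP2 and TIMP3 lie below 0 on every array, and the intervals of the other 7 genes include 0; under median centring TIMP1 and BSG lie above 0 and RECK below it.

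Among the collagenases, MMP1 was read by a probe (A_23_P1691) that is spotted 10 times on each array. Its normalized intensity in SB cells was 859, 620, 572 and 3039 on arrays 1 to 4, and in SCt cells 3605, 1489, 1829 and 9239. On each array the level was lower in SB than in SCt cells, but across arrays the lines overlapped, since array 4 was high in both. The log2 ratios were −2.07, −1.26, −1.68 and −1.60, and their mean was −1.65 ± 0.33 (SD, n = 4 arrays; limma, adjusted p = 5.25e-06). SB cells thus held 31.8% of the MMP1 signal of SCt cells, with a 95% interval from 27.3% to 37.0%, and MMP1 ranked 2 from the lowest among all genes. Its adjusted p by the methods' t-test was 0.198. The methods set a threshold of 0.05 and name no adjustment, and without adjustment 4 of the 10 genes were under 0.05 by that test, MMP1, TIMP2 and TIMP3 as lower and MMP14 as higher in SB cells.

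MMP13, the other secreted collagenase, had log2 ratios of −0.21, −0.06, 0.00 and −0.15, a mean of −0.10 ± 0.09 (SD, n = 4 arrays; limma, adjusted p = 0.377). MMP14, the membrane collagenase, had 0.13, 0.07, 0.04 and 0.14, a mean of 0.09 ± 0.05 (SD, n = 4 arrays; limma, adjusted p = 0.389). MMP2, the gelatinase, had 0.00, 0.13, −0.03 and −0.13, a mean of −0.01 ± 0.11 (SD, n = 4 arrays; limma, adjusted p = 0.971) that was 0.07 with the scanner software's ratios. All 3 intervals (95%) held 0: their bounds were −0.23 and 0.02 for MMP13, −0.03 and 0.21 for MMP14, and −0.14 and 0.12 for MMP2. With median centring in place of loess, MMP13 (−0.29) and MMP14 (0.23) were called, in opposite directions.

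Of the inhibitors, TIMP2 and TIMP3 were called and TIMP1 and TIMP4 were not. TIMP2, which also takes part in the activation of MMP2, had normalized intensities of 2043, 3696, 2584 and 1592 in SB cells and of 2588, 4360, 3179 and 2177 in SCt cells. Its level was lower in SB cells on every array, although the ranges of the lines overlapped. The log2 ratios were −0.34, −0.24, −0.30 and −0.45, a mean of −0.33 ± 0.09 (SD, n = 4 arrays; limma, adjusted p = 0.00933), or 79.4% of the level in SCt cells (95% interval 72.7% to 86.7%).

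TIMP3, the inhibitor that binds to the extracellular matrix and also blocks ADAM proteases, had intensities of 6784, 24650, 13666 and 11531 in SB cells and of 12740, 31722, 18362 and 13838 in SCt cells. SB cells were lower on every array, although the ranges of the lines overlapped. The log2 ratios were −0.91, −0.36, −0.43 and −0.26, a mean of −0.49 ± 0.29 (SD, n = 4 arrays; limma, adjusted p = 0.0124), or 71.2% of the level in SCt cells (95% interval 62.1% to 81.6%). Under median centring the mean of TIMP3 was −0.26, outside the limma interval of −0.69 to −0.29, and it was still called (limma, adjusted p = 0.0420). Without array 3, neither TIMP2 (limma, adjusted p = 0.0767) nor TIMP3 (limma, adjusted p = 0.129) was called, and TIMP3 was not called with the scanner software's ratios (limma, adjusted p = 0.0552) or the series table (limma, adjusted p = 0.0641). Neither was called by the methods' t-test, with adjusted p-values of 0.233 for TIMP2 and 0.350 for TIMP3.

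TIMP1, a secreted inhibitor of most MMPs, had log2 ratios of −0.25, 0.22, −0.08 and −0.06, a mean of −0.04 ± 0.20 (SD, n = 4 arrays; limma, adjusted p = 0.815) that was 0.07 under median centring and 0.03 without array 1. TIMP4 had −0.07, 0.18, −0.27 and 0.04, a mean of −0.03 ± 0.19 (SD, n = 4 arrays; limma, adjusted p = 0.874) that was 0.05 without array 3. Both genes lay above 0 on some arrays and below it on others, and their intervals reached from −0.20 to 0.12 and from −0.19 to 0.13. Whether TIMP2 and TIMP3 differ from TIMP1 and TIMP4 was not tested.

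The promoters of TIMP3, which was called, and of TIMP1, which was not, are shown as a description of both genes. RefSeq windows (GRCh38.p14) were held for 6 of the 10 genes, MMP14, TIMP1, TIMP3, TIMP4, RECK and BSG, and not for MMP1, MMP13, MMP2 and TIMP2. Each line below holds the 250 bases before the start, from 5′ to 3′ on the strand of the gene, at chr22:32801455-32801704 (+ strand) for TIMP3 and at chrX:47582186-47582435 (+ strand) for TIMP1. Capitals mark matches on either strand to the motifs searched, AP-1 (TGAGTCA), NF-kB (GGANTTTCC), ETS (AGGAAG), SP1 (GGGCGG) and the TATA box (TATAAA).
TIMP3: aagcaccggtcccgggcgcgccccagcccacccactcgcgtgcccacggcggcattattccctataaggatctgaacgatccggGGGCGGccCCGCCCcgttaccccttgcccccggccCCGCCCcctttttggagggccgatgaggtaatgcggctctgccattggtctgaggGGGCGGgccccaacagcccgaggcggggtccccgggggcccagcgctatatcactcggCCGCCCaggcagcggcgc
TIMP1: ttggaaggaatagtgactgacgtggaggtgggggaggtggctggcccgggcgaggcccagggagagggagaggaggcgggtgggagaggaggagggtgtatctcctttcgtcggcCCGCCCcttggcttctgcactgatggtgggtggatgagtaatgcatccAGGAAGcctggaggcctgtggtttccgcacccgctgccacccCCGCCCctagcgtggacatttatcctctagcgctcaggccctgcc
The TIMP3 window held 5 matches to SP1, and 4.15% of all 35116 windows of this length held as many or more. The TIMP1 window held 2 matches to SP1 and 1 to ETS; 24.3% of windows held 2 or more matches to SP1, and 28.7% held a match to ETS. None of the 7 windows of the 6 genes held a match to AP-1 or NF-kB, which are found in 4.20% and 1.45% of all windows. A match is a description of letters and not a site of binding.

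Of the membrane regulators, RECK was read by 2 probes. The tested probe (A_33_P3269899) had log2 ratios of −0.11, 0.02, −0.04 and 0.16, a mean of 0.01 ± 0.12 (SD, n = 4 arrays; limma, adjusted p = 0.956) that was −0.08 under median centring and −0.02 with the scanner software's ratios. The other probe (A_23_P83028) was well above background on 3 arrays in SB cells and on 2 in SCt cells and was not tested; its log2 ratios were −0.01, 0.15, −0.02 and 0.33. Both probes lay on either side of 0. BSG, with intensities from 38947 to 48858 over both lines, had −0.13, −0.08, −0.27 and 0.03, a mean of −0.11 ± 0.12 (SD, n = 4 arrays; limma, adjusted p = 0.359), which under median centring turned to 0.23 and was called (limma, adjusted p = 0.0166).

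The collagenase was then set against its inhibitors and regulators within each array, as the log2 ratio of MMP1 minus that of another gene, which leaves the levels of different probes uncompared; setting these genes against each other was planned, but the difference as its measure was chosen after the ratios were seen. Against TIMP1 the difference was −1.82, −1.49, −1.60 and −1.55 on arrays 1 to 4. Against TIMP2 it was −1.73, −1.03, −1.38 and −1.15, and against TIMP3 −1.16, −0.90, −1.25 and −1.34. The log2 ratio of MMP1 thus lay below that of each of these inhibitors on every array. This held also for the 2 inhibitors that were themselves called lower.

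Against TIMP3, the nearest of the 9 genes, the mean difference was −1.16 ± 0.19 (SD, n = 4 arrays), and against MMP14, the farthest, −1.75 ± 0.36 (SD, n = 4 arrays). All 9 differences were below 0 on 4 of 4 arrays. In an exact two-sided sign-flip test each had p = 0.125, the smallest value that 4 arrays allow, so this design cannot pass a threshold of 0.05 by that test. Under the 16 alternatives run for them, the 9 differences stayed between −1.89 and −1.07. Under median centring the order changed, with MMP13 the nearest (−1.28, beside −1.30 for TIMP3) and BSG the farthest (−1.80).

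**Figure D2:**
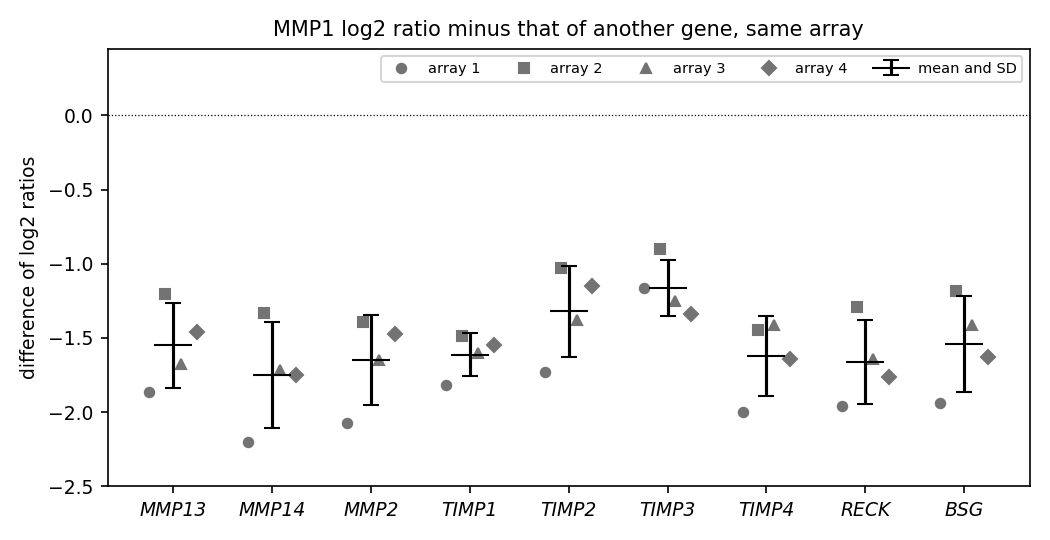
Log2 ratio of MMP1 minus the log2 ratio of another gene on the same array (vertical axis, log2 scale) for 9 genes, with a symbol for each array and the mean with its SD over 4 arrays. Every point lies below 0, with the smallest gaps for TIMP3 and TIMP2, although under median centring the smallest was that for MMP13.

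The levels themselves varied between arrays, and did so most for the 3 genes that were called, a pattern noticed after the values were seen. In SCt cells, MMP1 was lowest on array 2 and highest on array 4, a 6.21-fold range, and in SB cells the range was 5.31-fold. The range of MMP1 was wider than that of 99.95% of genes in SCt cells and of 99.93% in SB cells, where the median gene had ranges of 1.31-fold and 1.27-fold. TIMP3 had ranges of 2.49-fold in SCt and 3.63-fold in SB cells, wider than in 98.7% and 99.8% of genes. TIMP2 had ranges of 2.00-fold in SCt and 2.32-fold in SB cells, wider than in 96.3% and 98.4% of genes. The 7 other genes stayed within 1.37-fold in both lines.

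These shifts ran in different directions. Array 4, the highest for MMP1 in both lines, was the lowest for TIMP2 in both lines, and array 2 was the highest for TIMP2 and TIMP3 in both lines. The summed intensity of the squamous markers was also lowest on array 4, at 136486 in SB and 134204 in SCt cells, against 215599 to 233899 and 220549 to 244886 on the other arrays. Of these 10 markers, 7 were lowest on array 4 in both lines, KRT14, KRT5 and KRT17 among them, while TP63 and EPCAM were not and KRT6A was highest there in SB cells. The sum of the fibroblast markers, COL1A1 the brightest, was highest on array 4, at 9332 in SB and 9507 in SCt cells, against 5210 to 7486 and 5571 to 6796 on the other arrays. COL1A1 made up most of that sum, with 8488 in SB and 8591 in SCt cells on array 4, and 2 of the 5 markers tested, COL1A1 and FAP, were highest on array 4 in both lines, while COL1A2, DCN and THY1 were so in SCt cells only. The sum of the leukocyte markers, PTPRC the brightest, was also highest there, at 28147 in SB and 27558 in SCt cells, against 21526 to 23378 and 21752 to 24012. The brightest PTPRC probe made up most of it, with 22990 in SB and 22660 in SCt cells. That probe was highest on array 4 in both lines and CD68 and CD3E in SB cells only, while CD14 was lowest there in both, and a less bright PTPRC probe was highest on array 2 in both. The sum of the endothelial markers, CDH5 the brightest, stayed between 1214 and 1413. The part of these shifts in the levels of MMP1 and the TIMPs was not tested. AEG-1 had ranges of 1.45-fold in both lines.

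**Figure D3:**
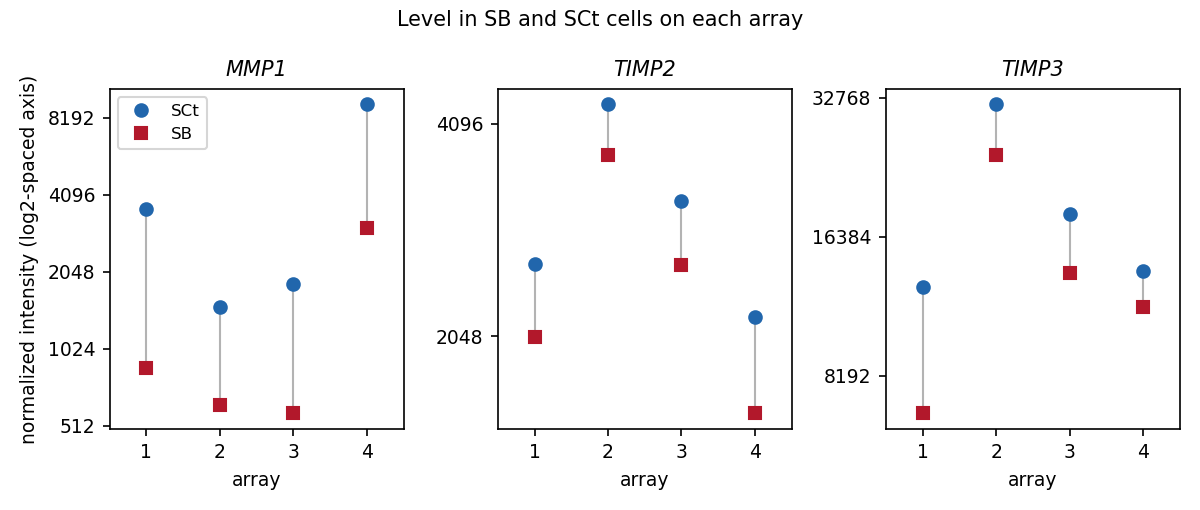
Normalized intensity of MMP1, TIMP2 and TIMP3 (vertical axes, log2-spaced, with a different range in each panel) in SCt cells (circles) and SB cells (squares) on each of the 4 arrays; a grey segment joins both values of an array. The SB value lies below the SCt value on every array, while both move from array to array.

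The 10 spots of MMP1 gave the technical spread. Of 40 spots on 4 arrays, 39 were used after 1 outlier on array 1 was left out, and all 39 had a log2 ratio below 0. The spots reached from −2.20 to −1.89 on array 1, from −1.46 to −1.06 on array 2, from −1.84 to −1.40 on array 3 and from −1.68 to −1.56 on array 4. Array 1 did not overlap with the other arrays, and arrays 2 and 4 did not overlap with each other.

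The SD between the spots of an array was 0.11, 0.14, 0.15 and 0.04, against 0.33 between arrays. Over the 858 tested probes that are spotted 10 times, the median SD between spots was 0.0634, 0.0545, 0.0530 and 0.0598, and between arrays 0.0939. MMP1 therefore varied more than most such probes, more between arrays than 99.2% of them, and more between spots than 92.1%, 99.2% and 98.8% on arrays 1, 2 and 3 but more than only 19.0% on array 4.

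Part of the spread between spots followed their place on the array, a pattern that was noticed after the values were seen. The 5 spots in the upper part of the array, of which 4 were used on array 1, had mean log2 ratios of −1.97, −1.14, −1.56 and −1.58 on arrays 1 to 4, and the 5 in the lower part −2.15, −1.39, −1.79 and −1.63. The lower spots were more negative on 4 of 4 arrays, and on arrays 1, 2 and 3 the sets of spots did not overlap. Over the height of an array the fitted slope of the ratio was −0.28, −0.41, −0.38 and −0.09, steeper than in 97.2%, 99.6%, 99.1% and 64.5% of the probes spotted 10 times, whose median slopes lay between −0.04 and 0.02. From the upper spots alone the mean over arrays was −1.56, and from the lower spots alone −1.74, both called by limma.

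**Figure D4:**
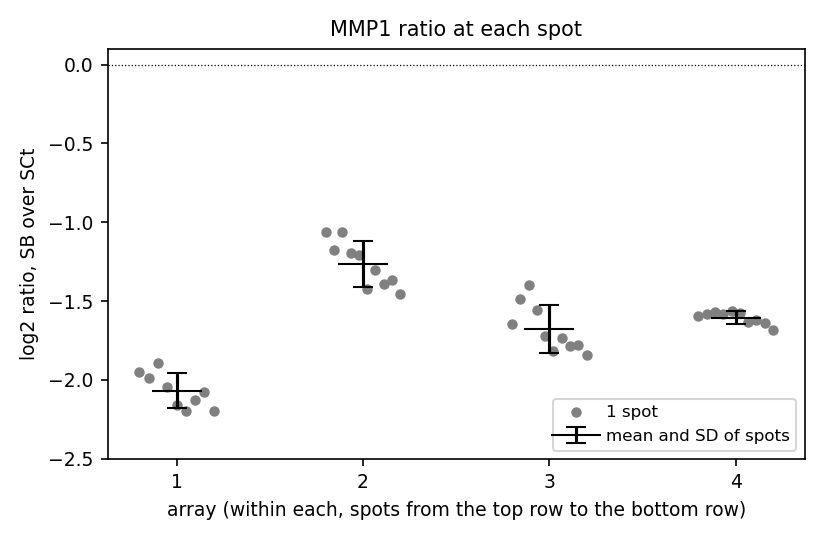
Log2 ratio of SB over SCt cells at each used spot of the MMP1 probe (vertical axis), by array, with the spots of an array drawn in order from the top to the bottom of the array and the mean with the SD over spots. All 39 spots lie below 0, and on arrays 1, 2 and 3 the lower spots are more negative than the upper ones.

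TIMP2 and TIMP3 were spotted once, so their technical spread was read from probes of like brightness, a comparison chosen after the values were seen. Among 112 probes spotted 10 times within 0.5 of the log2 brightness of TIMP2, the median SD between spots was 0.0412, and among 28 such probes for TIMP3 it was 0.0314. The SD of TIMP2 between arrays, 0.0900, was larger than in 35.7% of its comparison probes, and that of TIMP3, 0.287, larger than in 89.3%. The median SD between arrays of the comparison probes was 0.109 for TIMP2 and 0.121 for TIMP3.

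Against all genes, the 10 genes were placed in order from the lowest log2 ratio upwards. MMP1 was at position 2, TIMP3 at 69 and TIMP2 at 248 of 23484, and MMP14, the highest, at 19076.

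**Figure D5:**
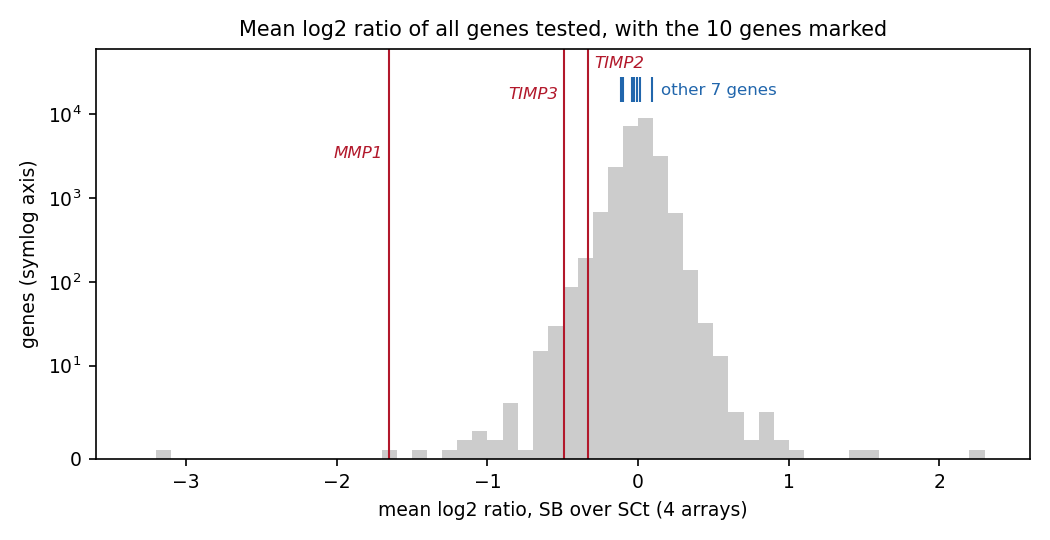
Number of genes (vertical axis, symmetric log scale) in bins of mean log2 ratio of SB over SCt cells (horizontal axis) for the 23484 genes tested. Red lines mark MMP1, TIMP3 and TIMP2, which were called, and blue ticks mark the other 7 genes, which lie within the bulk of all genes.

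The other MMPs, which share the zinc-binding catalytic domain, are described next. Of 19 listed, 18 had a probe whose accession RefSeq assigns to them, and 12 were tested. Of these 12, 0 were called by limma, 2 were at an unadjusted p under 0.05 and 0 were so by the methods' t-test. Their median log2 ratio was 0.05, with 10 above and 2 below 0, and 3 were called as higher under median centring. MMP12, macrophage elastase, had the highest, 0.24 ± 0.19 (SD, n = 4 arrays; limma, adjusted p = 0.0968), and MMP17 the lowest, −0.10. In the row of neighbouring MMP genes that holds MMP1 in RefSeq, MMP20, MMP12 and MMP13 were tested beside it and MMP7, MMP27, MMP8, MMP10 and MMP3 were not well above background on all arrays. MMP12 and MMP20 were the 2 under an unadjusted p of 0.05, and were named after their values were seen.

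Proteases that activate MMP precursors came next. Of 19 listed, 18 were tested and 2 were called, both lower in SB cells, with a median of 0.00. Median centring called 5, 4 of them as higher. For this and the other lists, the share to set beside the calls is that of all genes, 3.51% by limma. Median centring called 8937 of all probes tested. KLK5, a skin-type kallikrein, had −0.37 ± 0.14 (SD, n = 4 arrays; limma, adjusted p = 0.00899). KLK6 had −0.32 ± 0.15 (SD, n = 4 arrays; limma, adjusted p = 0.0201), but under median centring it had −0.00313 and was not called. A less bright KLK6 probe, named after its value was seen, had −0.25 and was not called (limma, adjusted p = 0.0805).

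Other inhibitors and clearance receptors numbered 12 tested of 13, with 1 called and a median of 0.04. Median centring called 2, 1 as lower and 1 as higher, as did limma without array 4, and 0 were called without array 1, 2 or 3. That gene was SPOCK1, a testican proteoglycan, at −0.28 ± 0.11 (SD, n = 4 arrays; limma, adjusted p = 0.0281). KLK5, KLK6 and SPOCK1 were not called when array 3 was left out (limma, adjusted p = 0.0924, 0.119 and 0.164), nor was SPOCK1 without array 1 (limma, adjusted p = 0.0537) or array 2 (limma, adjusted p = 0.121), nor KLK6 without array 2 (limma, adjusted p = 0.0602). With the series table KLK5 (limma, adjusted p = 0.0625), KLK6 (limma, adjusted p = 0.0504) and SPOCK1 (limma, adjusted p = 0.0547) were not called, nor was KLK5 with the scanner software's ratios (limma, adjusted p = 0.0554). The mean of KLK5 was −0.20 under median centring, where it was called.

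Of the binding partners of TIMPs and the other proteases they block, 10 of 16 were tested and 0 were called by limma, with 3 at an unadjusted p under 0.05 and 0 so by the methods' t-test; median centring called 4. Their median was −0.05, and from 0 to 1 of them were called with 1 array left out. Of the partners of BSG and RECK, 13 of 14 were tested, with a median of −0.02, and 1 was called (9 under median centring, 5 of them as higher). The count was 2 with the scanner software's ratios or the series table, and ran from 0 to 3 with 1 array left out. The called gene was NPTN, the neuroplastin gene and a close relative of BSG. It had −0.42 ± 0.14 (SD, n = 4 arrays; limma, adjusted p = 0.00420). A less bright NPTN probe, named after its value was seen, had −0.28 (limma, adjusted p = 0.0430). The brightest probe was not called without array 3 (limma, adjusted p = 0.0505), and had −0.23 under median centring, where it was called. WNT7B, which signals through RECK, had −0.03 at its brightest probe, −0.51 at another (limma, adjusted p = 0.00158) and −0.15 at the third, so its probes did not give the same result; it was singled out after its values were seen.

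Collagen receptors and docking partners (9 of 10 tested) and collagens and other substrates of collagenase (10 of 13 tested) held 0 called genes by limma, with 0 and 1 at an unadjusted p under 0.05 and 1 and 0 so by the methods' t-test; median centring called 3 in each. Their medians were 0.06 and 0.02. Without array 1, 1 gene among the collagens and other substrates was called, as higher. Of the transcription factors known at the MMP1 promoter, 21 of 22 were tested, with a median of −0.04, and 1 was called, JUN, a subunit of AP-1, with log2 ratios of −0.46, −0.31, −0.26 and −0.37 and a mean of −0.35 ± 0.09 (SD, n = 4 arrays; limma, adjusted p = 0.00682). RELA, NFKB1, FOS and FOSL1 were among the 20 that did not pass. Median centring called 6, 5 of them as higher, and with 1 array left out from 1 to 2 were called.

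The 5 genes whose ratios on the 4 arrays lay nearest to those of MMP1, by Euclidean distance among 23135 other genes with values on all arrays, were UHMK1, CAPZA1, SMIM13, PXDN and CPOX. Their mean log2 ratios were −1.41, −1.22, −1.11, −1.07 and −1.12, at distances from 0.712 to 1.31. In contrast to MMP1, the levels of these genes in SB and SCt cells did not overlap across arrays.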

How the data were processed

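Per the file headers, Agilent Feature Extraction 10.5.1.1 gave the median pixel intensity of each spot and of its local background, with no normalization. The log10 ratios in these deposited files carry the scanner software's background subtraction and dye normalization. The log2 ratios of the series table are as deposited, and on each array at least 98.7% of its 34127 values lay within 0.001 of the software's processed signals. Median intensities (median or mean had been planned) were corrected by normexp with an offset of 50 and normalized by loess within each array. Outlier spots were left out and the spots of a probe averaged. Probes well above background in at least 1 channel on all 4 arrays were fitted with limma 3.58.1 in R 4.3.3 as log2 SB over SCt against 0, with Benjamini-Hochberg adjustment over 28505 probes. A gene took its brightest probe.

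The genes and lists were chosen with earlier results of these data known. Named genes were the 10 genes, AEG-1, from each list up to 2 called genes with the largest rise and 2 with the largest fall, and the 5 nearest to MMP1. For in vitro comparisons in general the methods give 3 technical and 3 biological replicates, and for the 4 arrays they do not name the cultures. Alternatives covered the ratio source, background correction, normalization, filters, outlier spots, variance model, test, probes of a gene and leaving out each array; the upper and lower spots of MMP1 were added after the data were seen.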

Additional observations from a re-analysis of the deposited data

Results flagged for a closer look

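Of 22 sets of 4 ratios checked, 1 had an array far from the others. At the brightest KLK6 probe, array 3 had a log2 ratio of −0.54 and the other arrays −0.24, −0.24 and −0.25, so that the gap to the nearest array was 0.969 of the whole range. Chance alone marks about 1 in 20 such sets. Without array 3 the mean was −0.25 and the gene was not called by limma (adjusted p = 0.119).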

How the results depend on the processing

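MMP1 kept its direction under all 17 alternatives, from −1.78 to −1.52, and its call in 16; by the methods' t-test its mean of −1.65 was called only without adjustment. Probes called over the whole array numbered 698 with the series table, 8937 under median centring and 0 by the methods' t-test (3936 without adjustment). With 1 array left out they ran from 204 (without array 3) to 1991 (without array 4). Of the 10 genes, 6 were called under median centring, 0 by the methods' t-test (4 without adjustment), and from 1 to 3 with 1 array left out. MMP2 turned to 0.0676 with the scanner software's ratios, 0.0676 with the series table and 0.00463 with no background correction, and ran from −0.0507 to 0.0343 with 1 array left out. RECK turned to −0.0197, −0.0197 and −0.0281 under the same settings and to −0.0805 under median centring, and ran from −0.0416 to 0.0502. TIMP1 turned to 0.0674 under median centring and ran from −0.129 to 0.0289, and TIMP4 ran from −0.0991 to 0.0502. BSG turned to 0.23 under median centring and ran from −0.159 to −0.0615, and MMP13 ran from −0.138 to −0.0681. The cause was not tested. Median centring moved the median of all genes by 0.0589. The upper and lower spots of MMP1, chosen after the data were seen, gave −1.56 and −1.74. Signal over background left 1 RECK probe and 6 of 18 other MMPs untested.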

Other observations

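MMP3, a neighbour of MMP1 on the chromosome, was well above background on 3 arrays in each line and was not tested. It was singled out after its values were seen. Its normalized intensity in SB cells was 103, 83.3, 81.6 and 226 on arrays 1 to 4, and in SCt cells 106, 76.3, 83.7 and 263. As for MMP1, array 4 was the highest in both lines. MMP12, macrophage elastase, had 279, 129, 155 and 369 in SB cells and 208, 128, 141 and 285 in SCt cells, also highest on array 4 in both lines. Of the other 6 neighbours of MMP1, 0 were highest on array 4 in both lines. MMP13 was highest on array 1 and MMP8 on array 3 in both lines, MMP20 and MMP10 were highest on array 4 in SCt cells only, and MMP7 and MMP27 in SB cells only. MMP7, MMP8, MMP10 and MMP27 were not well above background on all arrays.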
